A study of Mus musculus with 2 samples.

Results

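The 10 genes described here encode the proteins that hand bacterial lipopolysaccharide (LPS) to its receptor and carry the signal from the receptor's tail into the cell. They were chosen by name: the co-receptor genes Cd14 and Ly96, the adaptor genes Myd88, Tirap, Ticam1 and Ticam2, and the IRAK kinase family genes Irak1, Irak2, Irak3 and Irak4. All 10 were found among the 34745 listed genes, and all 10 reached a mean of 1 FPKM over both libraries, as did 9038 genes in all. FPKM is a count of sequenced fragments divided by the length of the transcript and by the depth of the library. The data came from peritoneal macrophages of C57BL/6 mice, with 1 RNA library labelled Kdm2b-/- and 1 labelled wild type. Both were from cells harvested 4 days after thioglycollate, an irritant that recruits macrophages to the abdominal cavity, and both were treated with LPS at 100 ng/ml. The time in LPS is 4 h in the sample characteristics and 3 h in the treatment protocol. No untreated library was used here, so the values are levels under LPS and not responses to it. The labels do not say whether the cells of a library came from 1 animal or several, nor which exons the Kdm2b allele lacks or in which cells.

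LPS is lifted from serum or from bacteria by CD14, a membrane-anchored protein, and passed to MD-2, the product of Ly96, which sits on the outer part of the receptor TLR4 and holds the lipid. Once TLR4 pairs up, its inner TIR domains recruit adaptors in pairs. TIRAP bridges to MyD88, which gathers the IRAK kinases into the complex called the Myddosome and leads to rapid NF-kappaB activation. TRAM, the product of Ticam2, bridges to TRIF, the product of Ticam1, which acts from endosomes and leads to interferon production. IRAK4 is the first kinase of the Myddosome, IRAK1 and IRAK2 pass the signal on, and IRAK3, also called IRAK-M, is a catalytically poor member known in macrophages as a brake on this pathway after repeated LPS.

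KDM2B, the protein whose gene was targeted, is a histone demethylase that binds unmethylated CG dinucleotides through a zinc finger domain, so the CG content of the members' start sites was read from the reference. RefSeq promoter windows (GRCm38.p6, 250 bases before to 50 after a start) were matched by symbol for 7 of the 10 members: Irak1, Irak2, Irak3, Irak4, Myd88, Ticam1 and Tirap. No window was used for Cd14, Ly96 and Ticam2. Windows on the chromosome that carries Cd14 and Ticam2 were left out before matching, so their absence is not a failed match. The CG and motif counts of the members do not cover Cd14, Ly96 and Ticam2. Both windows of Irak3, the gene with the largest ratio between the libraries, and the window of Irak2 are shown with every CG in capitals. The CG-rich Irak3 window (chr10:120201548-120201847, minus strand), the CG-poor one (chr10:120202081-120202380, minus strand) and that of Irak2 (chr6:113638217-113638516, plus strand) read 5′ to 3′:
Irak3 CG-rich window: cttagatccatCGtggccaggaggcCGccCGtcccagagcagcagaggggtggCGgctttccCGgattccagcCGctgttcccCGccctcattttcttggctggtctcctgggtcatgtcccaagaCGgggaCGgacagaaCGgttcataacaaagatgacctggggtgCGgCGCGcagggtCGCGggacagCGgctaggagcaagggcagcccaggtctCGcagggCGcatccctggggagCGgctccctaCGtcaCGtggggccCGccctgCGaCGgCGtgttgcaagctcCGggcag
Irak3 CG-poor window: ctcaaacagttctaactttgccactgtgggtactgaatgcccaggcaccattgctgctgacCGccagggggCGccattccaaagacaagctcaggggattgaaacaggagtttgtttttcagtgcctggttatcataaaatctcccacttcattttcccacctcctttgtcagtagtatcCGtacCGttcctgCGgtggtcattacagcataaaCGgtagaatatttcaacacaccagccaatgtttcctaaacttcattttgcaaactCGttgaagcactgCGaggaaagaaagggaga
Irak2 window: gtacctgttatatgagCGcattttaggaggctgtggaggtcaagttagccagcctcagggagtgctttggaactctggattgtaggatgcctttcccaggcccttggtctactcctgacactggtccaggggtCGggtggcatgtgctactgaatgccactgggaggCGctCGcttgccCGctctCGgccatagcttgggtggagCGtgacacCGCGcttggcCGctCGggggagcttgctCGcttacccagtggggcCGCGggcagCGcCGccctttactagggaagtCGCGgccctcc

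The CG-rich Irak3 window held 26 CG dinucleotides, the CG-poor one 8 and the Irak2 window 18. Over the 10 windows of the 7 members the median was 20 and the range 8 to 29, against a median of 7 over all 32851 windows, whose quartiles were 3 and 20. Irak1 and Tirap each have 2 overlapping windows among the 10, and the table of all windows includes genes that macrophages do not express. The windows of Tirap held 29 and 22 CG dinucleotides, those of Irak1 22 each, that of Irak4 16 and that of Ticam1 10. The log2 ratios of FPKM + 1, labelled Kdm2b-/- over wild type, were 0.25, 0.15, 0.14 and 0.35 in that order. A link between CG content and the ratios was not tested. Myd88, the gene whose values were closest between the libraries, held 13 CG dinucleotides in its window (chr9:119339969-119340268, minus strand), which is shown with other capitals, those of the matches to 2 motifs:
Myd88 window: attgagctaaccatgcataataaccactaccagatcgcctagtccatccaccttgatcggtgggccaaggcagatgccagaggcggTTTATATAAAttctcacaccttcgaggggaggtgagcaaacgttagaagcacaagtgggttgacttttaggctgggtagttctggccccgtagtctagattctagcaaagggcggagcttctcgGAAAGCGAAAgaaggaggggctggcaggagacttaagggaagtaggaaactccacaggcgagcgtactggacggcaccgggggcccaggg

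In the Myd88 window the capitals mark the TATA box letters TATAAA, in 2 overlapping matches on opposite strands, and the core of the interferon-stimulated response element, read here as GAAA, any 2 bases and GAAA. Of the 10 member windows, Myd88's was the 1 with each of these, against 13.6% and 3.44% of all windows. The NF-kappaB consensus of 10 letters was matched in the 2 overlapping windows of Irak1 and in no other member window, against 8.46% of all windows. The E-box CACGTG was matched in the CG-rich Irak3 window and in that of Ticam1 (7.15% of all windows), the PU.1 core GAGGAA in the CG-poor Irak3 window and in that of Ticam1 (28.3%), and the AP-1 letters TGANTCA in none (7.81%). Both strands were searched. A match is a match of letters and not a bound site.

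The estimated depth was 26800000 fragments for the library labelled Kdm2b-/- and 27300000 for the wild-type library. With 1 library per group, the spread between animals is unknown, no test was possible, and each direction is that of these 2 libraries. Kdm2b itself was not lower in the library labelled Kdm2b-/-, at 0.326 FPKM against 0.205 FPKM (about 45 and 29 fragments). It was under the floor of a mean of 1 FPKM. The counting interval of its log2 ratio without a pseudocount held 0 (-0.05 to 1.38). Its exons share 627 of 10869 bases with Rnf34 on the other strand, which stood at 9.21 and 8.64 FPKM, and strand was not marked. The part of Rnf34 in the Kdm2b values was not tested, and a value per gene cannot show whether an exon is missing. The 9 macrophage markers summed to 13371 and 10857 FPKM, most of it Lyz2 (11409 and 8945 FPKM). Of the 8 past the floor, 5 log2 ratios were above 0 and 3 below, with a median of 0.14 beside 0.10 for all genes. Markers of T and NK cells summed to 0.0383 and 0.0602 FPKM, with 6 of 7 (Cd3e, Cd3d, Cd3g, Cd8a, Ncr1 and Nkg7) at 0 in both libraries, and those of dendritic cells to 1.053 and 0.911 FPKM, with Xcr1 and Clec9a at 0 among 6. Neutrophil markers summed to 15.3 and 14.7 FPKM, nearly all of it S100a8, with Ly6g, Mpo and Retnlg at 0 among 9. Eosinophil and mast cell markers (7 genes, Epx and Mcpt4 at 0) summed to 0.816 and 1.73 FPKM, and endothelial markers (3 genes) to 1.92 and 1.85 FPKM. The 6 B cell markers summed to 2.86 and 27.3 FPKM, most of it Igkc (1.47 and 18.9 FPKM) and Ighm (0.992 and 6.92 FPKM). These 2 were the B cell markers past the floor, with log2 ratios of -3.01 and -1.99 on the FPKM + 1 scale. Among all genes past the floor, 1.02% were lower by 2-fold or more. The 10 stromal and mesothelial markers summed to 386 and 338 FPKM, most of it Dcn (251 and 248 FPKM). No B cell, stromal or mesothelial marker was at 0 in both libraries. The collagen genes Col1a1 (16.0 and 3.63 FPKM), Col1a2 (24.2 and 9.67 FPKM) and Col3a1 (22.9 and 9.54 FPKM) were the 3 of the 10 at least 2-fold higher in the library labelled Kdm2b-/-. Of all genes past the floor, 0.863% were. Of the 10 log2 ratios, 7 were above 0 and 3 below (Msln -0.50, Lum -0.35 and Krt19 -0.31), with a median of 0.40. The part of such cells in the members' values was not tested, and in bulk RNA fewer cells of a type and less RNA per cell cannot be told apart.

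The members spanned a wide range of levels. Cd14 was the most abundant in both libraries, 17.0 times the next gene, Myd88, in the library labelled Kdm2b-/- and 21.5 times in the wild-type library. In the wild-type library the order by FPKM was Cd14, Myd88, Ly96, Irak2, Ticam1, Irak3, Ticam2, Irak1, Irak4 and Tirap, and it was the same in the library labelled Kdm2b-/-. Cd14 lay above 99.4% of the genes past the floor in the wild-type library and Tirap above 23.5%. The 95% counting intervals of neighbours in this order overlapped in the wild-type library for Irak2 and Ticam1 and for each step from Ticam2 down to Tirap. In the library labelled Kdm2b-/- they overlapped for Ticam1 and Irak3, for Irak1 and Irak4 and for Irak4 and Tirap. These intervals cover counting error only and rest on the longest annotated transcript as the length of each gene.

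**Figure D1:**
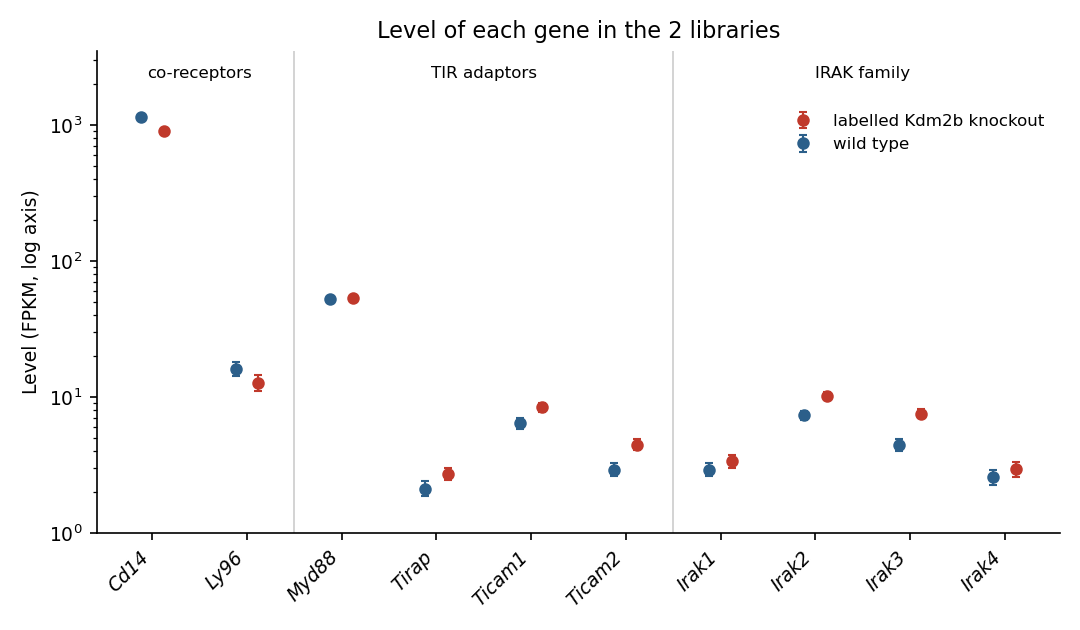
FPKM (log axis) of the 10 genes in the wild-type library (blue) and the library labelled Kdm2b knockout (red), 1 library each; bars are exact Poisson 95% intervals of the estimated fragments. Cd14 is the highest in both libraries, at 905 and 1136 FPKM, Myd88 stands at 53.3 and 52.8 FPKM, and the other genes lie between 2.12 and 16.1 FPKM.

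The co-receptor genes were both lower in the library labelled Kdm2b-/-, and the adaptor and IRAK genes were level or higher. On the FPKM + 1 scale, which understates the change of low genes, 2 of the 10 log2 ratios of the library labelled Kdm2b-/- over the wild-type library were below 0 and 8 above, where 63.2% of all genes past the floor were above 0. Of the 10, 1 gene, Irak3, was at least 1.5-fold higher, which 4.70% of all genes were, and 0 were at least 1.5-fold lower, which 2.80% were. At 2-fold, 0 members were higher and 0 lower, against 0.863% and 1.02% of all genes. The members' median log2 ratio was 0.20 and that of all genes past the floor 0.10, with 7 of the 10 above the latter. With the library labelled Kdm2b-/- scaled by 0.915, so that the median of all genes moved from 0.10 to 0, the members' median was 0.11, and no member was 1.5-fold apart. The split of all genes turned with that scaling, to 2.54% at least 1.5-fold higher and 4.28% lower (230 and 387 genes), and with equal upper quartiles it was 2.40% and 4.41% (217 and 399 genes).

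Cd14 (ENSMUSG00000051439, chromosome 18, 36725067 to 36726798, GRCm38) stood at 905 FPKM in the library labelled Kdm2b-/- and 1136 FPKM in the wild-type library. The first value is 20.3% below the second. From about 39797 and 50830 fragments the log2 ratio was -0.33, with a 95% counting interval of -0.35 to -0.31. The difference was thus larger than counting error at this locus, with fragments taken as independent and the scaling as fixed. Over the reported setting and 8 alternatives the log2 ratio ran from -0.47 to -0.19, a wider range than that interval. Cd68, another abundant macrophage gene, stood at 1753 and 1722 FPKM, and the ratio of Cd14 to Cd68 was 0.516 in the library labelled Kdm2b-/- and 0.660 in the wild-type library.

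Ly96 (ENSMUSG00000025779, chromosome 1, 16688051 to 16709611), which encodes the lipid-binding MD-2, stood at 12.6 FPKM in the library labelled Kdm2b-/- and 16.1 FPKM in the wild-type library. The log2 ratio without a pseudocount was -0.35, with a counting interval of -0.61 to -0.10 (about 225 fragments against 292). The ratio between the 2 co-receptor genes was close in both libraries: Cd14 was 71.8 times Ly96 in the library labelled Kdm2b-/- and 70.6 times in the wild-type library, a log2 difference of 0.02 with a counting interval of -0.23 to 0.28. With the trend in transcript length and GC content removed they parted, Ly96 to 0.14 and Cd14 to -0.19 on the FPKM + 1 scale. Ly86, the related MD-1 gene whose product sits on the receptor CD180, stood at 76.3 and 93.7 FPKM, while Cd180 itself stood the other way at 48.2 and 39.0 FPKM (log2 ratio 0.30).

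Tlr4, the receptor that both co-receptors serve, went the other way, at 3.45 FPKM in the library labelled Kdm2b-/- and 0.732 FPKM in the wild-type library, which is 377 fragments against 81. The level of Ly96 was therefore 3.65 times that of Tlr4 in the library labelled Kdm2b-/- and 22.0 times in the wild-type library, and that of Cd14 262 and 1551 times. In both libraries the 2 co-receptor transcripts were more abundant than that of the receptor.

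Myd88 was the most abundant adaptor gene and the one whose level was closest between the libraries. The gene (ENSMUSG00000032508, chromosome 9, 119335934 to 119341411) stood at 53.3 and 52.8 FPKM, about 3509 and 3541 fragments, which gave a log2 ratio of 0.01 with a counting interval of -0.06 to 0.08. Its sign depends on the scaling: with the median of all genes set to 0 its log2 ratio on the FPKM + 1 scale was -0.11, and with equal FPKM totals 0.10. Its exons share 290 of 2576 bases with Acaa1a on the other strand, which stood at 5.57 and 5.06 FPKM, and strand was not marked.

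The other 3 adaptor genes, each much less abundant, were higher in the library labelled Kdm2b-/-. Tirap (ENSMUSG00000032041, chromosome 9, 35184551 to 35200291), the bridge to MyD88, stood at 2.71 and 2.12 FPKM, a log2 ratio without a pseudocount of 0.36 (counting interval 0.12 to 0.60). Its exons share 446 of 4929 bases with Gm39318 on the other strand. Ticam1 (ENSMUSG00000047123, chromosome 17, 56269319 to 56276786), which encodes TRIF, stood at 8.40 and 6.38 FPKM, a ratio of 0.40 (0.23 to 0.56). It has 1 annotated transcript, so its estimate of about 674 and 521 fragments does not depend on the choice of transcript. Ticam2 (ENSMUSG00000056130, chromosome 18, 46557291 to 46574533), which encodes TRAM, stood at 4.45 and 2.92 FPKM, a ratio of 0.61 (0.41 to 0.81). Ticam2 shares 838 of its 5792 exon bases with Tmed7 on the same strand, which stood at 15.95 and 14.96 FPKM, and its value is uncertain for that reason. On the scale without a pseudocount Ticam2 was 1.52-fold higher, and on the FPKM + 1 scale its log2 ratio was 0.48, under the 0.585 that 1.5-fold requires.

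Within the adaptors the balance therefore differed between the libraries, and a share of a sum does not depend on how the libraries are scaled. A trend with transcript length is not such a scaling. With the length and GC trend removed, log2 ratios on the FPKM + 1 scale were 0.02 for Myd88 (0.01 before) and 0.15 for Tirap (0.25 before). Those of Ticam1 and Ticam2 were 0.25 (0.35 before) and 0.44 (0.48 before). Shares with the trend removed were not computed. Myd88 made up 77.4% of the adaptors' summed FPKM in the library labelled Kdm2b-/- and 82.2% in the wild-type library. Ticam1 made up 12.2% and 9.94%, Ticam2 6.47% and 4.55%, and Tirap 3.94% and 3.30%. Myd88 was 6.34 times Ticam1 in the library labelled Kdm2b-/- and 8.27 times in the wild-type library, a log2 difference of -0.38 with a counting interval of -0.56 to -0.21. The ratio of Ticam2 to Ticam1, the 2 adaptors of the TRIF branch, was 0.530 and 0.457, and the interval of their log2 difference held 0 (-0.05 to 0.47).

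**Figure D2:**
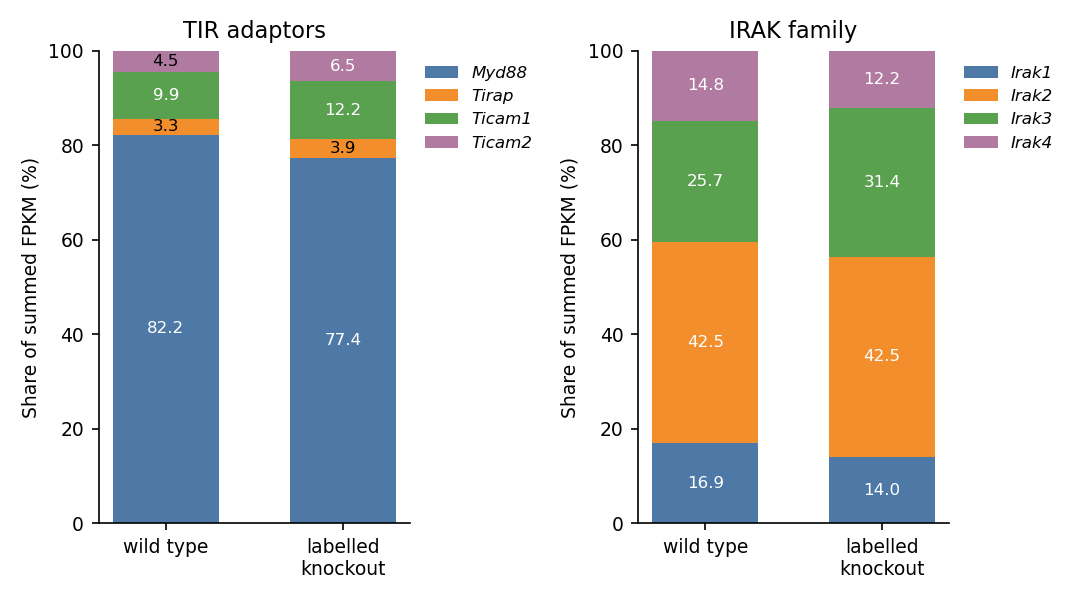
Share of each gene (percent) in the summed FPKM of the 4 adaptor genes (left) and of the 4 IRAK genes (right), in the wild-type library and the library labelled Kdm2b-/-, 1 library each. Myd88 takes 82.2% and 77.4% of the adaptors, and Irak3 25.7% and 31.4% of the IRAK family, while the share of Irak2 is 42.5% in both.

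The IRAK family was higher in sum in the library labelled Kdm2b-/-, 24.0 against 17.2 FPKM, and its members differed among themselves. Irak4 and Irak1, the kinases of the early Myddosome, were close. Irak4 (ENSMUSG00000059883, chromosome 15, 94543643 to 94581815) stood at 2.93 and 2.56 FPKM, a log2 ratio without a pseudocount of 0.19 whose counting interval held 0 (-0.06 to 0.45). Irak1 (ENSMUSG00000031392, chromosome X, 74013914 to 74023918) stood at 3.36 and 2.92 FPKM, a ratio of 0.20 with an interval that also held 0 (-0.02 to 0.43). At about 240 to 345 fragments per value, a difference of this size was not detectable for these genes. The exons of Irak4 share 395 of 5021 bases with Twf1 on the other strand, which stood at 26.3 and 24.5 FPKM.

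Irak2 (ENSMUSG00000060477, chromosome 6, 113638467 to 113695026), which sustains the signal after IRAK1, was the most abundant IRAK gene in both libraries. It stood at 10.2 FPKM in the library labelled Kdm2b-/- and 7.33 FPKM in the wild-type library, a log2 ratio without a pseudocount of 0.48 (0.33 to 0.63) from about 874 and 639 fragments. Its share of the family's summed FPKM was 42.5% in both libraries.

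Irak3 (ENSMUSG00000020227, chromosome 10, 120141648 to 120202130), the gene of the inhibitory IRAK-M, had the largest ratio of the 10. It stood at 7.54 FPKM in the library labelled Kdm2b-/- and 4.44 FPKM in the wild-type library, 69.9% higher, a fold of 1.699 with a counting interval of 1.49 to 1.94 (about 626 fragments against 375). On the FPKM + 1 scale its log2 ratio of 0.65 lay above 96.9% of the genes past the floor. Irak3 made up 31.4% of the family's summed FPKM in the library labelled Kdm2b-/- and 25.7% in the wild-type library, while Irak1 made up 13.98% and 16.9% and Irak4 12.2% and 14.8%. Against Irak4 it stood at 2.58 and 1.73 times, a log2 difference of 0.57 (0.26 to 0.88), and against Irak2 at 0.739 and 0.605 times, a difference of 0.29 (0.05 to 0.52). The ratio of Irak1 to Irak4 was 1.15 and 1.14. On the other strand Tmbim4 shares 192 of the 3676 exon bases of Irak3, and it stood at 11.7 and 14.5 FPKM, lower in the library labelled Kdm2b-/-.

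**Figure D3:**
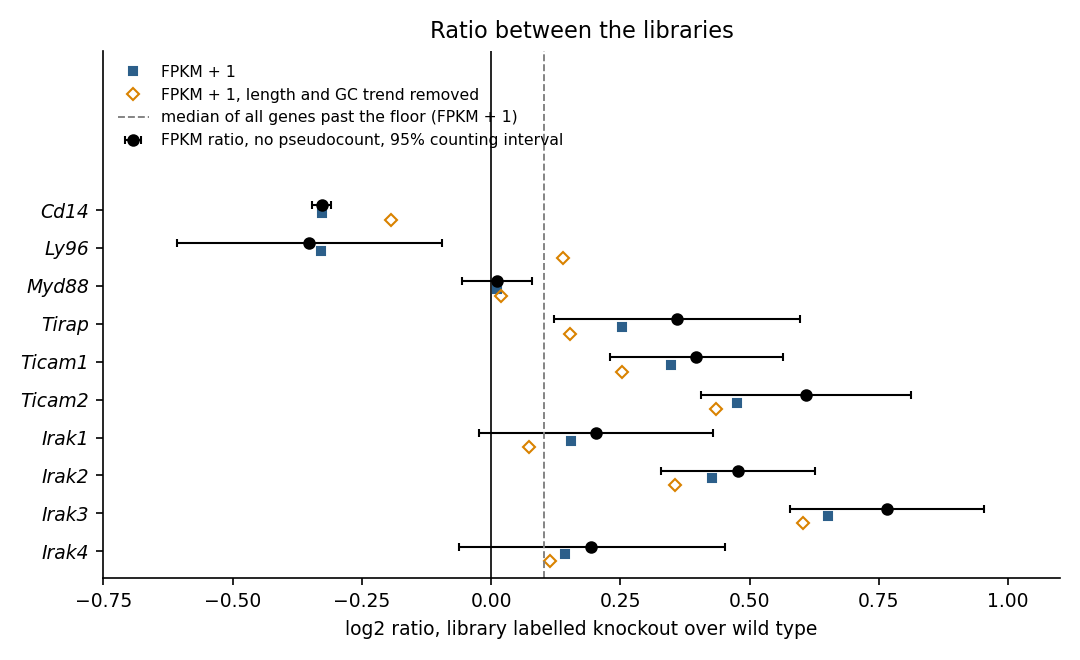
Log2 ratio of the library labelled Kdm2b-/- over the wild-type library for each gene: black points without a pseudocount, with 95% counting intervals; blue squares on the FPKM + 1 scale; open diamonds after the trend with transcript length and GC content was removed; the dashed line is the median of all genes past the floor, 0.10. Irak3 lies farthest right in each of the 3 sets, and the diamond of Ly96, at 0.14, lies on the other side of 0 from its black point.

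Over all genes the ratio went with the length of the transcript, and the shortest members had the lowest ratios. Over the 9016 genes past the floor with a known length, the median log2 ratio was -0.07 for transcripts under 2500 bases and 0.18 for longer ones. Ly96, Cd14 and Myd88 are the 3 members with a longest transcript under 2500 bases (666, 1641 and 2458 bases), and they hold the 3 lowest ratios. Among the other 7, from 2992 to 4589 bases, the ratios did not follow length: Ticam1, at 2992 bases, stood at 0.35, Irak3, at 3097 bases, at 0.65 and Tirap, at 4589 bases, at 0.25. For Ly96, whose log2 ratio on the FPKM + 1 scale was -0.33, the median of the 451 genes in its length bin (1 of 20) was -0.27. For Cd14, at -0.33, that of its 451 neighbours in length was -0.07, and 13.5% of them had a lower ratio. Irak3 and Irak2 fall in 1 bin, with a median of 0.14, and stood at 0.65 and 0.43, above 94.4% and 86.4% of its 450 genes. Irak1 and Irak4 stood within 0.01 of the medians of their bins, which were 0.15 and 0.14.

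With the trend in length and GC content removed, the log2 ratio of Ly96 turned from -0.33 to 0.14, on the upper side of the median of all genes (0.10), while Cd14 stood at -0.19. Irak3 stood at 0.60, Ticam2 at 0.44, Irak2 at 0.36 and Ticam1 at 0.25. Tirap moved from 0.25 to 0.15, Irak4 to 0.11 and Irak1 to 0.07, and Myd88 stood at 0.02. The members' median was then 0.15, and 7 of 10 were above that of all genes.

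**Figure D4:**
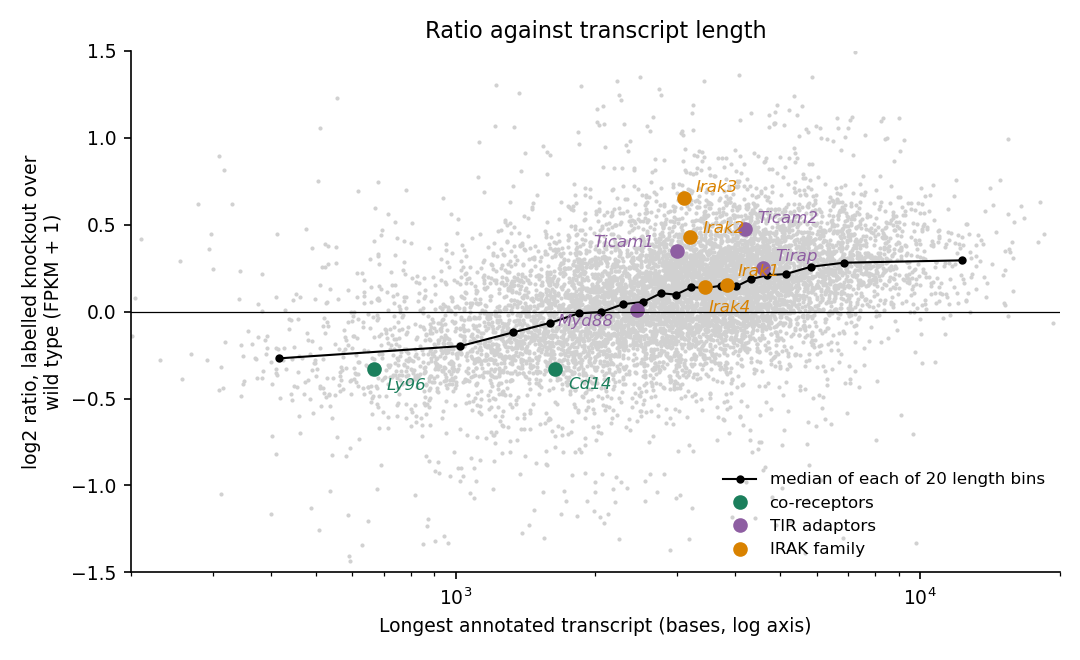
Log2 ratio on the FPKM + 1 scale against the longest annotated transcript (bases, log axis) for the genes past the floor (grey; genes beyond the axes are not drawn), with the median of each of 20 length bins (black line) and the 10 members in colour. Ly96 lies near the line, Cd14 below it, and Irak3, Irak2, Ticam1 and Ticam2 above it.

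The neighbouring genes of the pathway were taken from lists. Of 15 genes of LPS binding and Toll-like receptors, which sense microbial products, 11 were past the floor. Tlr4 was the 1 at least 2-fold higher, at 1.36 on the FPKM + 1 scale, which 0.863% of all genes past the floor were. At 1.5-fold 0 were lower, against 2.80% of all genes. Tlr4 reached the floor of a mean of 1 FPKM through the library labelled Kdm2b-/- (3.45 FPKM), as its wild-type value was 0.732 FPKM. At a floor of 5 FPKM Tlr4 dropped out. Its log2 ratio ran from 0.56 with a pseudocount of 5, under 1.5-fold, to 2.09 with a pseudocount of 0.1. Next in size came Tlr13 (19.97 and 15.3 FPKM, 0.36), Tlr8 (9.76 and 7.38 FPKM, 0.36) and Tlr1 (4.87 and 6.29 FPKM, -0.31). Of the 11, 7 were above the median of all genes, and the median of the list was 0.15. Tlr12 was listed at 0 in both libraries.

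Of 16 genes that act after the IRAKs in the MyD88 branch, 13 were past the floor, with a median log2 ratio of 0.16. The 1 at least 1.5-fold higher was Ube2v1, a ubiquitin-conjugating cofactor of TRAF6, at 5.10 and 1.90 FPKM (1.08), and 0 were lower. Ube2v1 overlaps Gm20431 on the same strand, and its value is uncertain; with a pseudocount of 5 its log2 ratio was 0.55, under 1.5-fold. Rnf31 (0.41) and Rbck1 (0.34), subunits of the linear ubiquitin ligase, and Tab2 (0.31), which couples ubiquitin chains to the kinase TAK1, came next. Traf6, the ubiquitin ligase recruited by the IRAKs, stood at 4.71 and 4.66 FPKM. Rnf31 overlaps Irf9 on the same strand.

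The 8 genes of the TRIF branch were all past the floor, with a median of 0.03, and none was 1.5-fold apart. Their largest differences were those of Ripk3, a kinase of necroptosis (13.5 and 19.7 FPKM, log2 ratio -0.51), Traf3 (1.39 and 0.961 FPKM, 0.29), Tradd (5.38 and 6.24 FPKM, -0.18) and the kinase gene Ikbke (8.78 and 8.07 FPKM, 0.11). With the median of all genes scaled to 0, Ripk3 passed 1.5-fold lower, at -0.63. Of the 8, 2 were above the median of all genes. Ticam1 and Ticam2, the adaptors that feed this branch, had log2 ratios of 0.35 and 0.48 on the same scale, above those of all 8.

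Among 8 inhibitors of TIR signalling, 5 were past the floor, with 0 at 1.5-fold in either direction and a median of 0.16. The deubiquitinating enzyme gene Tnfaip3 stood at 42.4 and 60.04 FPKM (log2 ratio -0.49) and Socs1 at 19.9 and 24.2 FPKM (-0.27). Tnfaip3 passed 1.5-fold lower with the median of all genes scaled to 0 (-0.62) and with the length and GC trend removed (-0.64). Tollip, which binds IRAK1 in resting cells, stood at 19.7 and 15.7 FPKM (0.31), and Pik3ap1 at 39.1 and 32.0 FPKM (0.28). Inhibitor genes thus lay on both sides of 0, and Irak3, with a larger ratio than any of the 5, is not in that list. Sarm1 was listed at 0 in both libraries.

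Il1r1, the interleukin-1 receptor gene, whose product also signals through MyD88 and the IRAKs, stood at 15.9 and 9.32 FPKM (log2 ratio 0.71). With equal upper quartiles (0.57) and with a pseudocount of 5 (0.54) it was under 1.5-fold. It overlaps Gm38070 on the same strand. Il1r1 was the 1 of 2 such receptor genes past the floor that was at least 1.5-fold higher, and Il1rap, which encodes its partner chain, stood at 2.11 and 1.94 FPKM (0.08). Of 6 genes commonly used as controls of level, 0 were 1.5-fold apart, from Actb at -0.25 to Ppia at 0.08. Their levels differed widely: Actb stood at 613 and 729 FPKM, Gapdh at 12.5 and 11.8 FPKM and Ppia at 1.61 and 1.47 FPKM. The accuracy of these levels was not tested.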

How the data were processed

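Messenger RNA was measured in 2 libraries. Per the labels' protocols, poly-A RNA was fragmented and reverse transcribed from random primers, and TruSeq paired-end libraries were sequenced on an Illumina HiSeq instrument. Per the file headers, the values that the authors deposited are FPKM, 1 for each Ensembl gene in each library. Tools named in the submitters' processing notes are StringTie 1.3.0, HISAT2 2.0.4 and edgeR, with the GRCm38.p4 and mm10 builds. What each tool did, the annotation release and any filter are not stated in what was used here.

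Symbols, coordinates, overlaps, GC content and longest transcripts came from GENCODE M21 (GRCm38), which named 34344 of the listed IDs and left 401 unnamed. Ratios were log2 of FPKM + 1, for genes whose mean reached 1 FPKM. For genes with 1 transcript, the product of FPKM and length was a whole multiple of 37.3 or 36.7, within 0.02 of a fragment, for 92.5% of 1508 and 92.2% of 1445 genes under 20 fragments. These steps gave the estimated fragments. Exact Clopper-Pearson 95% intervals of ratios, exact Poisson intervals of levels and, for ratios of 2 genes, delta-method intervals hold counting error alone, as PCR duplicates are no independent molecules. Trend removal subtracted medians of 20 length bins and then 20 GC bins, keeping the overall median. The members and lists were chosen with earlier results of these data known. The rule named all members, Kdm2b, Tlr4 and up to 4 genes per list with the largest ratios. Other names (Cd68, Ly86, Cd180, Traf6, S100a8, Lyz2, Dcn, Msln, Lum, Krt19, Gapdh and overlapping genes) were picked with their values in view. The lists were LPS binding and Toll-like receptors, the MyD88 and TRIF branches, inhibitors, other MyD88-using receptors, level controls and 8 sets of cell type markers. Alternatives were pseudocounts of 0.1 and 5, 3 scalings, a floor of 5 or none, and trend removal. Functions were tested on simulated data. Python 3.11.15, pandas 2.3.3 and SciPy 1.17.1 were used.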

Additional observations from a re-analysis of the deposited data

How the results depend on the processing

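The members' median log2 ratio lay between 0.10 and 0.27 over the reported setting and 8 alternatives, and 7 of 10 members lay above the median of all genes in each but 1; at a floor of 5 FPKM, 6 members remained and 3 were above it. The count of members at least 1.5-fold higher, 1 as reported (Irak3), was 2 with a pseudocount of 0.1 (Irak3 and Ticam2), where 9.91% of all genes were. It was 0 with a pseudocount of 5 (1.04% of all genes), with scaling to a median of 0 (2.54%) and with scaling to equal upper quartiles (2.40%), so the smaller count goes with a smaller share of all genes. The counts at 1.5-fold lower and at 2-fold in either direction were 0 in every setting run. Irak3 ranged from 0.41 to 0.75 and Cd14 from -0.47 to -0.19. The sign of Ly96 turned with the length and GC trend removed (0.14) and that of Myd88 with 2 scalings (-0.11 and -0.13). The other members kept theirs. No paired analysis was possible because each group holds 1 library. Depth limits Irak4, Tirap, Ly96 and Irak1 most, at 225 to 345 fragments per library. Leaving out a library was not possible.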
